A study of Rattus norvegicus with 10 samples.

Results

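A set of 152 annotated rat transcripts was, by group mean, close to silent in sham cortex and present after transient ischaemia. The members were selected on their measured FPKM (fragments scaled to transcript length and library total): rows of the mRNA table with an Ensembl transcript identifier, whose sham libraries averaged under 0.5 FPKM and whose MCAO/R libraries averaged 2 FPKM or more. The rule itself leaves out 1 further transcript that reaches these levels. The 152 members are 0.585% of the 26001 annotated rows. In 74 of them at least 1 MCAO/R library was under 0.5 FPKM, so presence in every library is not meant. Each row is 1 transcript, so a value near 0 does not show that its gene was silent. Because the group means chose the members, the difference between the groups is a description here, and no test of it is read. The rule set no condition on how each member was spread over the 5 MCAO/R libraries, and most of the values below describe this. A single high library can lift a mean over the rule's level, so unevenness among the members follows in part from the rule.

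The samples were cerebral cortex of male Sprague-Dawley rats aged 8 to 9 weeks and weighing 240 ± 20 g, with 1 library per sample. In the MCAO/R group, replicates 1 to 5, the middle cerebral artery was occluded for 2 h and blood flow then returned for 24 h. In the sham group, replicates 6 to 10, the labels give sham surgery and nothing further. No source used here says that each library came from a separate rat, or which part of the cortex was taken, so spread between libraries may be partly technical. No table given with the files pairs these identifiers with gene symbols: 0 of 152 members matched. For that reason 2 members are printed by identifier, the others by their rank in mean MCAO/R FPKM, and markers of cortical cell types could not be checked.

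Occlusion and reopening of the middle cerebral artery is a rat model of ischaemic stroke with recanalization. In the territory of that artery neurons are injured, astrocytes and microglia react, and leukocytes enter from the blood. Transcripts that healthy cortex hardly makes, among them those of chemokines, stress proteins and products of invading cells, are known to appear in such tissue. In bulk RNA more cells of a type and more RNA per cell cannot be told apart.

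The levels reached after MCAO/R were mostly low, with a few members far above the rest. The mean MCAO/R level ran from 2.01 to 49.1 FPKM with a median of 3.34. It was at least 30 FPKM in 3 members, at least 10 in 13 and at least 5 in 42, while 67 members lay under 3 FPKM. In sham libraries the median of the members' means was 0.201 FPKM. All 5 sham libraries were at 0 for 15 members and under 0.1 FPKM for 30 members. A sham library reached 1 FPKM or more in 21 members, with 2.48 FPKM as the highest single value. Of the 760 sham values, 214 were listed at 0. How many reads stand behind a 0 is unknown from FPKM, and no detection limit can be given.

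Sums over annotated transcripts, most of them outside the rule, ran from 180179 to 195539 FPKM in MCAO/R libraries and from 128381 to 172480 in sham libraries, and the part of these totals in the members' differences was not tested beyond rescaling them to be equal.

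The rule's edges had neighbours close by. The mean MCAO/R level nearest to 2 FPKM was 2.01 inside the rule and 1.99 outside it. The sham mean nearest to 0.5 FPKM was 0.496 inside and 0.503 outside. There were 43 members with an MCAO/R mean of 2 to 2.5 FPKM, and 79 annotated transcripts fell just short at 1.5 to 2 FPKM with a sham mean under 0.5.

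Every library of one group can be set against every library of the other. In 75 members every MCAO/R library exceeded every sham library, and in 77 the groups overlapped. The same held for 12.7% of all 25038 features tested (annotated transcripts and assembled loci) and 15.9% of the 10105 annotated ones. On log2(FPKM + 1), limma with Benjamini-Hochberg adjustment over all features placed 86 of the 152 members higher at an adjusted p under 0.05. It called 14.3% of all features tested and 17.8% of annotated transcripts higher. Both counts use the contrast that chose the members, so nothing is read from their excess. The members' median difference on that scale was 1.45, against 0.11 over all features and 0.20 over annotated transcripts. Of the 86, 72 had groups that did not overlap and 14 had groups that did.

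**Figure D1:**
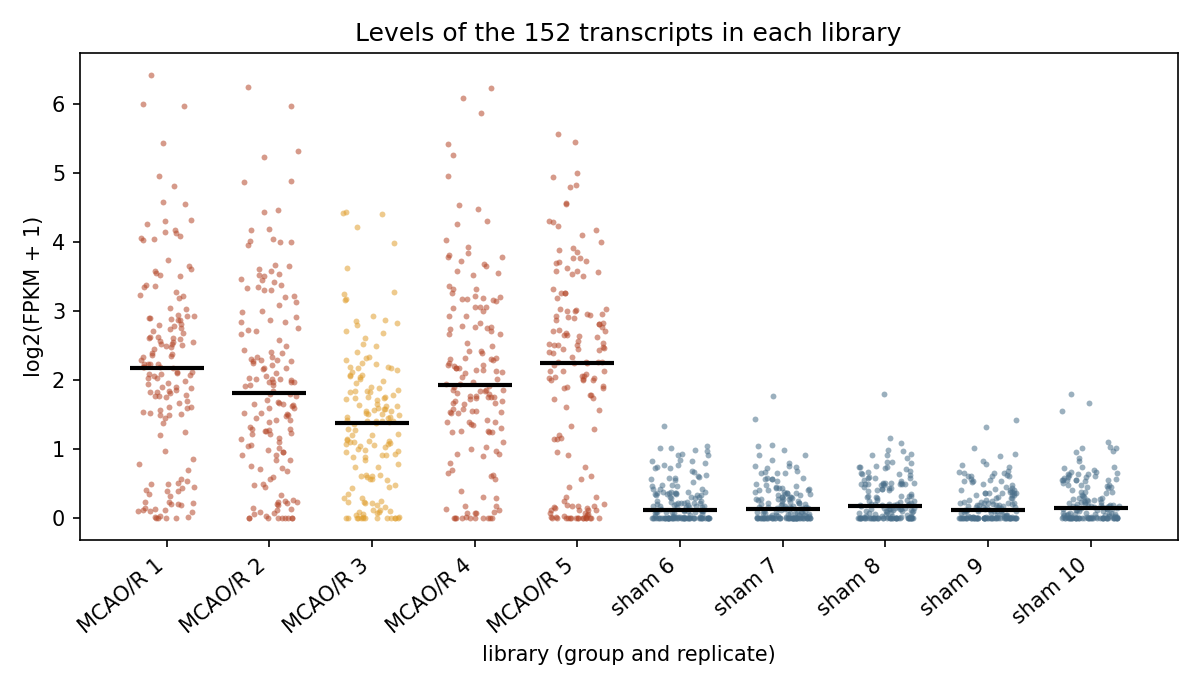
Level of each of the 152 transcripts as log2(FPKM + 1) (vertical axis) in each library (horizontal axis), with 1 point per transcript and a black line at the library's median; MCAO/R replicate 3 is drawn in yellow, the other MCAO/R libraries in red and sham libraries in blue. The MCAO/R clouds spread from 0 to high values, and the median of replicate 3, 1.61 FPKM, is the lowest of the 5.

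The member with the highest level was ENSRNOT00000000256. It stood at 62.7, 74.9, 8.45, 57.3 and 42.4 FPKM in MCAO/R replicates 1 to 5 and at 0.280, 0.351, 0.407, 0 and 0.0804 FPKM in sham replicates 6 to 10. The means were 49.1 ± 25.6 and 0.224 ± 0.176 FPKM (SD, n = 5 each). The groups were far apart, but replicate 3 reached only 14.2% of the mean of the other 4 MCAO/R libraries. The second, ENSRNOT00000014073, stood at 84.1, 36.6, 5.42, 66.7 and 4.69 FPKM in MCAO/R libraries, 39.5 ± 35.7 FPKM on average. Its sham libraries were at 0 for replicates 7, 8 and 9, at 0.00959 for replicate 10 and at 0.136 for replicate 6. Here replicates 3 and 5 were low together, and replicate 5 was the lowest.

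Further down the ranking stood members at like levels in all MCAO/R libraries and members that were high in some MCAO/R libraries and listed near 0 in others. Each row is 1 transcript, so a listed value near 0 does not show that RNA of its gene was absent from that library. How reads were assigned among the isoforms of a gene was not tested, since FPKM alone does not show it. The member of rank 12 was the most even by the share its highest library held of the sum, 24.5%, at 12.3, 8.20, 6.12, 12.7 and 12.6 FPKM in MCAO/R replicates 1 to 5 and at 0 in every sham library. The member of rank 4 stood at 0.155, 61.6, 0.0305, 41.7 and 0.0184 FPKM, so replicates 2 and 4 held it. Replicates 3 and 5 lay within its sham values, 0.0149 to 0.0896 FPKM, and replicate 1 slightly above them. Rank 6 stood at 42.1, 0, 0.541, 0.533 and 46.1 FPKM, high in replicates 1 and 5 only. Rank 36 stood at 26.9 FPKM in replicate 1 and between 0.0537 and 0.0620 in the other MCAO/R libraries, so a single library lifted its mean over the rule's level. Its sham values, 0.0504 to 0.145 FPKM, covered those of the 4 low MCAO/R libraries.

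Uneven members were common. All 5 MCAO/R libraries reached 2 FPKM in 22 members, 4 libraries in 29, 3 in 37, 2 in 48 and a single one in 16. In 74 members (48.7%) at least 1 MCAO/R library was under 0.5 FPKM, and in 63 members 1 library was under 0.5 while another was at 5 FPKM or more. A single library held over 80% of the summed MCAO/R level in 18 members. That library was replicate 1 in 6 of them, replicate 2 in 4, replicate 3 in 1, replicate 4 in 4 and replicate 5 in 3, so no single library supplied them all. All 31 possible combinations of libraries at 2 FPKM or more occurred. After all 5 libraries (22 members), the combination without replicate 3 was the most frequent, with 16 members, and those without replicate 1, 2, 4 or 5 alone held 3, 2, 3 and 5.

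**Figure D2:**
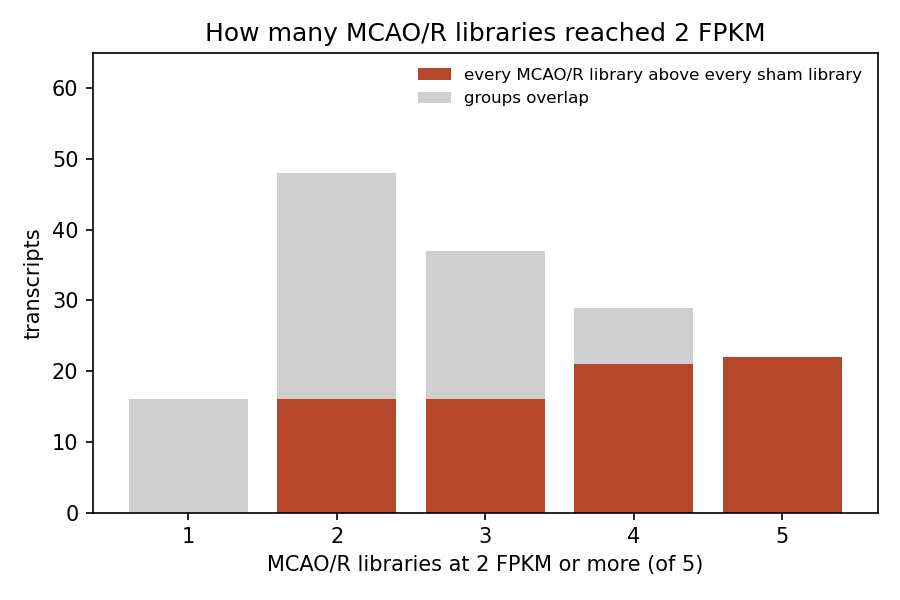
Number of transcripts (vertical axis) by how many of the 5 MCAO/R libraries had at least 2 FPKM (horizontal axis); red marks transcripts whose MCAO/R libraries were all above all sham libraries, grey those whose groups overlapped. All 22 transcripts at 2 FPKM or more in 5 libraries had separate groups, and none of the 16 that reached it in 1 library did.

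The same count was made for annotated transcripts of like level that were also expressed in sham cortex, with no test of the difference. With an MCAO/R mean of 2 to 5 FPKM and a sham mean of at least 0.5, 18.6% of 2063 transcripts had an MCAO/R library under 0.5 FPKM, against 55 of the 110 members in that range. At 5 to 10 FPKM the shares were 8.50% of 1459 and 51.7% of 29, and at 10 to 50 FPKM 3.35% of 2449 and 30.8% of 13. The cutoff of 0.5 FPKM also separates the 2 sets by sham mean. An MCAO/R library at its sham level would thus mostly be counted in the members and not in the other transcripts. The direction of the difference follows in part from that choice. Whether these transcripts differ from the members in length or in number of isoforms was not tested, since the files give neither. The mirrored rule, a mean of at least 2 FPKM in sham and under 0.5 in MCAO/R libraries, was met by 52 annotated transcripts. In 6 of them the groups did not overlap, in 0 did all 5 sham libraries reach 2 FPKM, and in 19 a single sham library did.

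Members with separate groups allow the MCAO/R libraries to be set against each other with sham levels well below. Over the 75 members with separate groups, the median level was 1.94 FPKM in replicate 3, 2.93 in replicate 2, 3.52 in replicate 4, 4.46 in replicate 1 and 4.93 in replicate 5. In the sham libraries it lay between 0.0827 and 0.147 FPKM. Replicate 3 was the lowest MCAO/R library in 41 of the 75, replicate 2 in 20, replicates 1 and 4 in 5 each and replicate 5 in 4. Replicate 5 was the highest in 30 and replicate 3 in 2. Over all 152 members replicate 3 was alone at the bottom in 61, replicate 2 in 28, replicate 5 in 21, replicate 1 in 18 and replicate 4 in 15, with a tie in 9.

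In the 77 members with overlapping groups the order by median level was another. Their median level was 2.51, 2.13, 0.540, 2.34 and 0.371 FPKM in MCAO/R replicates 1 to 5. By this measure replicate 5, the highest library in the separate members, was the lowest here and replicate 3 the next. Counted by member, replicate 3 was the lowest in 20 and replicate 5 in 17, with a tie in 9. The split rests on each member's lowest MCAO/R library, so the change of order follows in part from it. The median share of the mean of the other 4 libraries was 6.35% in replicate 5 and 12.8% in replicate 3. Over all members, those with separate groups included, replicate 5 had the most under 0.5 FPKM, 41 against 39 in replicate 3. It also had the most listed at 0, 12 against 11.

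Summed over the members, replicate 3 held 381 FPKM and the other MCAO/R libraries 851 to 993, while sham libraries held 29.1 to 38.2. As a share of the sum over annotated transcripts, which a constant factor on a library does not alter, this was 0.211% in replicate 3, 0.450% to 0.526% in the other MCAO/R libraries and 0.0185% to 0.0251% in sham libraries. Replicate 3 thus lay apart from both groups on these sums. Without the 5 highest members it held 331 FPKM and the others 634 to 816.

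The level of replicate 3 between the groups varied from member to member. The position of a library was taken on log2(FPKM + 1), with 0 at the sham mean and 1 at the mean of the other 4 MCAO/R libraries. Over the 75 members with separate groups the median position of replicate 3 was 0.58 (quartiles 0.46 and 0.80), and those of replicates 1, 2, 4 and 5 were 1.18, 0.87, 1.08 and 1.27. These members were kept because every MCAO/R library exceeded every sham library, so a position above 0 was fixed by that choice. In the 77 others the position of replicate 3 was 0.17 (quartiles -0.01 and 1.30) and that of replicate 5 was 0.09. Over all 152 members the median position was 1.15, 0.88, 0.53, 1.07 and 1.18 in replicates 1 to 5. The quartiles were 0.14 and 0.84 in replicate 3 and 0.07 and 1.67 in replicate 5, so the lower quartile of replicate 5 lay nearer to sham and its upper quartile further above. On the linear scale replicate 3 stood at a median of 41.5% of the mean of the other 4 in the members with separate groups and at 33.1% in all members. Replicate 2 stood at 67.0% and 72.5%, and replicates 1, 4 and 5 above 100% in both. Replicate 3 lay above all sham libraries and below all other MCAO/R libraries in 41 members, which are the 41 with separate groups already counted. It lay at or below the highest sham library in 45, against 27, 29, 24 and 40 in replicates 1, 2, 4 and 5. On the log scale replicate 3 was level with or above the mean of the others in 28 members, so the shortfall was not shared by all.

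**Figure D3:**
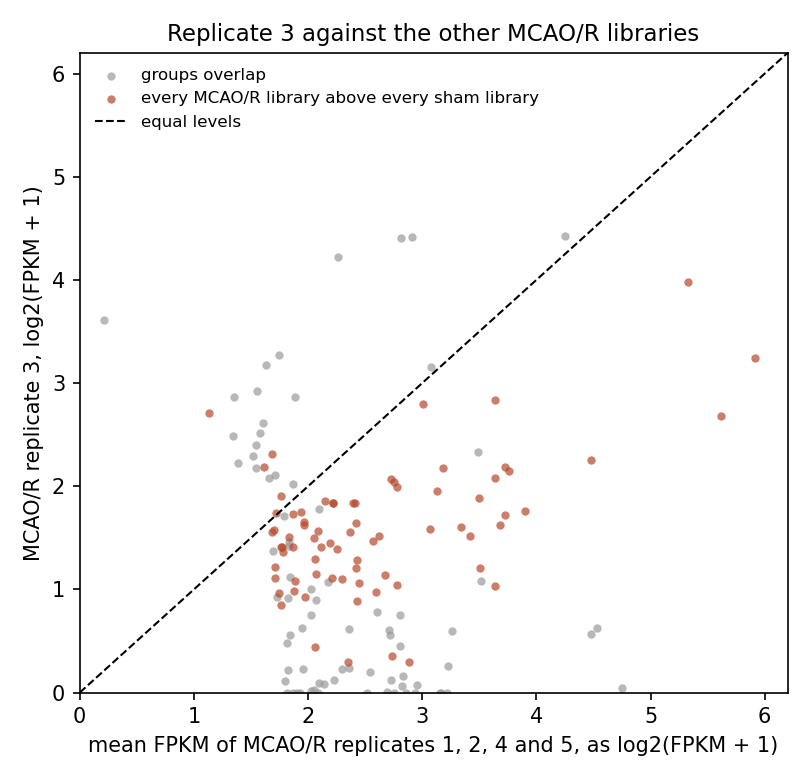
Level in MCAO/R replicate 3 (vertical axis) against the mean FPKM of MCAO/R replicates 1, 2, 4 and 5 (horizontal axis), both as log2(FPKM + 1), with 1 point per transcript; red points had separate groups, grey points overlapping ones, and the dashed line marks equal levels. Most points lie under the line, among them the 2 members with the highest levels, but the member of rank 5 lies above it, at 20.5 FPKM in replicate 3 or 114% of the mean of the others.

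The median shortfall of replicate 3 was larger in the higher ranges of level. Among members with separate groups, its median share of the mean of the other 4 libraries was 67.0% in the 28 members with a mean of 2 to 3 FPKM. It was 35.6% in the 23 at 3 to 5 FPKM, 27.0% in the 15 at 5 to 10 FPKM and 18.8% in the 9 at 10 FPKM or more. Replicate 3 was the lowest MCAO/R library in 8, 15, 11 and 7 members of these ranges. In the lowest range replicate 2 was the lowest more often, in 11 of 28 members. The ranges were drawn on means that include replicate 3. On the log scale, where the distance from sham also grows with level, the median position was 0.80, 0.53, 0.54 and 0.53 in the same ranges.

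Replicate 3 was also the lowest MCAO/R library for other annotated transcripts that were higher after MCAO/R. Over the 1554 called higher with a sham mean of at least 0.5 FPKM, it was the lowest in 50.3% and stood at a median of 83.4% of the mean of the others. Of these, 505 were called at 2-fold or more. Their median position in replicate 3 was 0.70, and replicate 3 was the lowest MCAO/R library in 56.8% of them. In linear terms replicate 3 stood at 68.7% of the mean of the others. Over all 10105 annotated transcripts tested it stood at 95.9%, within the 94.0% to 102% of the other MCAO/R libraries. By median position, however, replicate 3 was the lowest there too, at 0.58 (quartiles -0.20 and 1.26). Replicates 1, 2, 4 and 5 were at 1.02, 0.88, 0.89 and 1.04. The position divides by the difference between the groups, and the median difference over these 10105 was only 0.20. It is unstable where that difference is near 0, and the 10105 include the members. The 505 at 0.70 hold no members, so a position under 1 in replicate 3 was not particular to the members. The 287 annotated transcripts called lower stood at 152% in replicate 3, closer to sham than in the other MCAO/R libraries. These sets were called with replicate 3 in the fit, and the difference between them and the members was not tested.

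Assembled loci that met the same rule had another low library. The rule took 337 assembled loci of the mRNA table, 215 of them with separate groups. Replicate 2 was the lowest MCAO/R library in 156 of these 215 and replicate 3 in 47. The median level of the 215 was 3.83, 0.555, 1.62, 6.21 and 3.46 FPKM in MCAO/R replicates 1 to 5, against 2.93 FPKM in replicate 2 for the annotated members. Of the lncRNA rows, 95 met the rule and 12 had separate groups, of which replicate 2 was the lowest in 8 and replicate 3 in 4. Over all 95 lncRNA rows the lowest library was tied in 60, replicate 2 was the lowest in 16 and replicate 3 in 11, and the median position was between 0 and 0.00447 in every MCAO/R library, so no low library can be named for them. The position of replicate 3 was 0.67 in the assembled loci and 0.70 in the lncRNA rows with separate groups, and that of replicate 2 was 0.24 and 0.14.

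**Figure D4:**
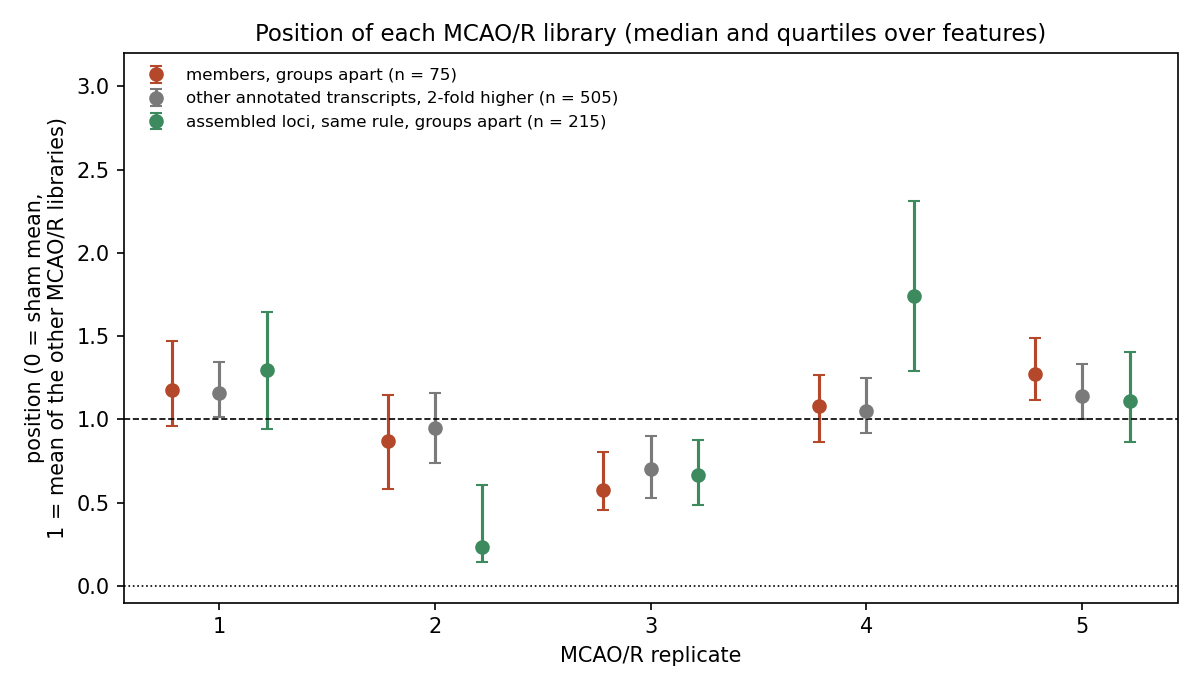
Position of each MCAO/R library (horizontal axis) between the sham mean (0, dotted) and the mean of the other MCAO/R libraries (1, dashed), as medians with quartiles (vertical axis) over the members with separate groups (red), other annotated transcripts called higher at 2-fold or more (grey) and assembled loci under the same rule with separate groups (green). Replicate 3 lies under 1 in all 3 sets, while replicate 2 is at 0.24 for assembled loci and at 0.87 for the annotated members.

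To describe a library that had no part in the choice, the rule was applied to the other 9 libraries and the tenth was read. Of the transcripts chosen without it, 58.5% of 135 reached 2 FPKM in MCAO/R replicate 1, 47.9% of 163 in replicate 2, 28.7% of 167 in replicate 3, 50.6% of 156 in replicate 4 and 54.4% of 149 in replicate 5. In sham libraries 7.23% to 9.47% of the chosen transcripts reached 2 FPKM. The held-out MCAO/R library exceeded all sham libraries for 74.1%, 75.5%, 65.9%, 74.4% and 67.1% of the transcripts in replicates 1 to 5. A sham library exceeded all other sham libraries for 25.8% to 38.6%. The median position of the held-out library was 0.98, 0.73, 0.45, 0.88 and 0.98 in MCAO/R replicates 1 to 5 and between 0 and 0.02 in sham libraries. Replicate 3 was the lowest of the MCAO/R libraries and above every sham library on these 3 measures. Of the 167 transcripts chosen without it, 142 were members, whose values in replicate 3 are described above. Its low rank here is thus no separate observation. By the share under 0.5 FPKM replicate 3 was not the lowest, with 31.1% against 32.9% in replicate 5.

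When replicate 3 was held out, 38 transcripts were at 2 FPKM or more in all 4 other MCAO/R libraries. Of these 22 reached 2 FPKM in replicate 3, the rest did not, and 1 was under 0.5 FPKM. For the other MCAO/R libraries such transcripts numbered 24 to 27, of which 22 reached 2 FPKM in each case, the same 22 members by construction. Under 0.5 FPKM were 2 of 25 in replicate 1, 3 of 27 in replicate 5 and 0 in replicates 2 and 4.

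**Figure D5:**
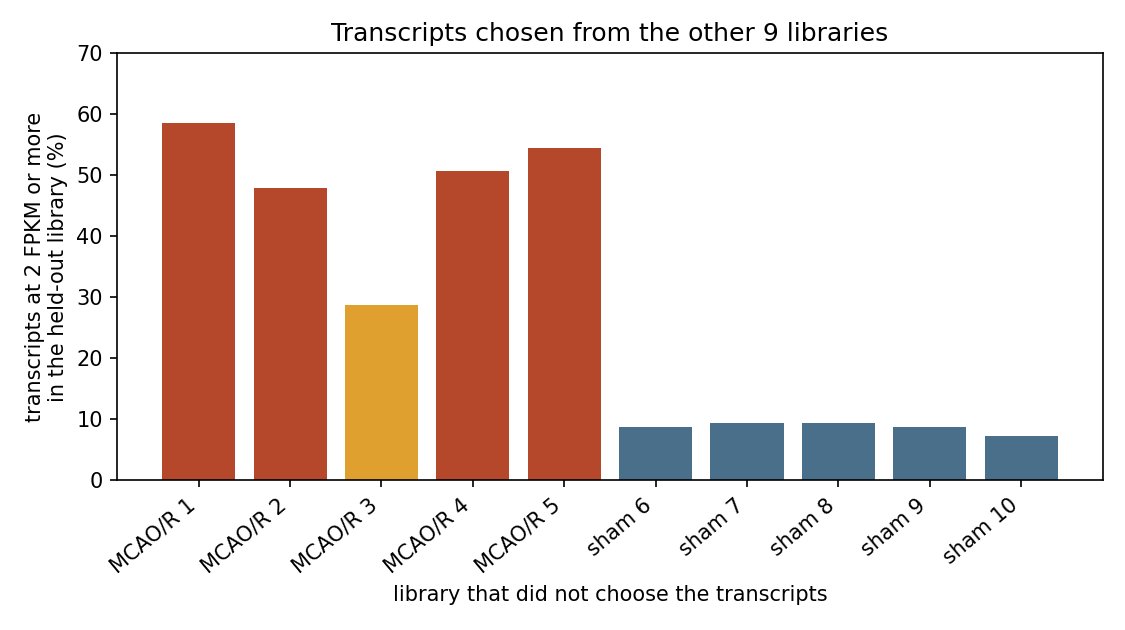
Share of transcripts at 2 FPKM or more (vertical axis, percent) in a library that was left out when the rule was applied to the other 9 (horizontal axis). MCAO/R libraries other than replicate 3 lie between 47.9% and 58.5%, replicate 3 (yellow) at 28.7% and sham libraries (blue) between 7.23% and 9.47%.

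Membership depended on single libraries for about as many members as not. When each library was left out in turn, 73 of the 152 members (48.0%) met the rule every time. Of these 73, 49 had separate groups, against 15.9% of the annotated transcripts tested, and nothing is read from that excess. Leaving out MCAO/R replicate 1 removed 27 members and added 10, the largest loss of any library. Leaving out replicate 3 removed 10 and added 25.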

How the data were processed

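The authors deposited FPKM for mRNA and lncRNA transcripts, 1 column per library, without read totals. There were 364224 mRNA and 31183 lncRNA rows. Rnor_5.0 is the build per the submitters' processing notes; the aligner, assembler and counting tool were not given in the sources used here. Per the labels' protocols, ribosomal RNA was removed from 1.5 µg of total RNA and libraries were directional. Isoforms of an assembled locus were summed. Features averaging 0.5 FPKM or more across the 10 libraries entered 1 fit on log2(FPKM + 1) with limma 3.58.1 in R 4.3.3, intensity trend on, two-sided, Benjamini-Hochberg adjusted. All 152 members passed that filter, as their MCAO/R level requires. The limma step was also run on simulated data in which a changed feature rose equally in all MCAO/R libraries. Many members were uneven between those libraries, so that run is no check on them. Members and measures were chosen with earlier results of these data known. Identifiers printed are the member with the highest MCAO/R mean and the highest whose lowest MCAO/R library is not replicate 3. The gene lists planned for the case that symbols could be matched were not used. Alternatives covered the thresholds, scaling, pseudocount, filter, variance model and each library left out.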

Additional observations from a re-analysis of the deposited data

Results flagged for a closer look

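Groups of 5 libraries were examined for 1 value far from the other 4 in 42 cases, of which chance marks about 1 in 20, and 6 were found. The cases overlap, since several of the 6 measure the same low values of replicate 3 over the same members. The 6 are therefore not read against chance. In MCAO/R replicate 3 the sum over the members was 381 FPKM where the next lowest library held 851, its share of the annotated sum was 0.211% where the next held 0.450%, and it was the lowest library for 61 members where the next was lowest for 28. ENSRNOT00000014073 stood at 0.136 FPKM in sham replicate 6, with the next sham library at 0.00959. Of the transcripts chosen without sham replicate 6, 38.6% stood higher there than in any other sham library, with 28.4% for the next library. The held-out position of sham replicate 8 was 0.0191, with the next at 0.00221, both close to the sham mean.

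Looked at member by member, 28 of the 152 (18.4%) had 1 MCAO/R library far from the other 4. The library was high in 27 of these, namely replicate 1 in 6, replicate 2 in 5, replicate 3 in 1, replicate 4 in 5 and replicate 5 in 10. It was low in 1, and there it was replicate 3. A single high library can lift a mean over the rule's level, so the surplus of high libraries follows in part from the rule. The same share was not taken over all features, so the 18.4% is not read against chance.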

How the results depend on the processing

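Of 126 alternative values 112 stayed within the limits set (1.5 times for counts, 1 SD between libraries for levels), 14 moved and 0 reversed. Only the relative level and the position of replicate 3 could reverse, since counts and FPKM levels have no sign to change. The means of the 2 members printed by identifier could not pass their limit when 1 library was left out. The 112 and the 0 are therefore no measure of robustness. A sham mean under 0.25 FPKM left 86 members, of which limma called 47, 45 had separate groups and 33 were lowest in MCAO/R replicate 3. An MCAO/R mean of at least 4 FPKM left 58 members, with 36 called, 30 separate, 31 lowest in replicate 3, a median level of 6.75 FPKM and a relative level of replicate 3 of -1.54, against -0.89 (median log2 difference from the other 4). These 2 rules take fewer transcripts by construction. Over all features tested, 14.3% were called higher and 12.7% were separate. The counts called and separate use the contrast that chose the members, so nothing is read from their excess. With group medians in the rule, 177 transcripts were chosen, which included 84 of the members (55.3% of the members and 47.5% of the 177). The relative level of replicate 3 was then -0.59 and its position 0.69, against 0.53. With a pseudocount of 0.1 they were -1.22 and 0.70. Equal annotated sums left 120 members and quantile normalization 110, all of them among the 152. These scalings moved the median difference of all annotated transcripts tested from 0.20 to 0.02 and -0.03 on the log2 scale; the members are to be read against that shift.

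With each library left out in turn, members numbered 135 to 171, their median level was 3.09 to 3.61 FPKM, 73 to 104 were called and 71 to 95 were separate. The shares of all features called or separate were not taken with a library left out, so nothing is read from these counts. Replicate 3 was lowest in 58 to 83, at a relative level of -0.96 to -0.86 and a position of 0.52 to 0.55. With the members kept and replicate 3 left out, an alternative chosen after seeing the data, 84 were separate and 90 called. With the members kept, leaving out any MCAO/R library cannot lower the number separate. The direction of the change from 75 to 84 was therefore fixed in advance. No other library was left out in this way, and nothing is read from these counts. No paired analysis was possible because the groups share no replicate number. The unknown depth limits what a value near 0 shows.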
